A study of Homo sapiens with 38 samples.

Results

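The genes described here encode the protein components of the human mitochondrial ribosome. They are the 75 genes whose symbol in the array's annotation is MRPL or MRPS followed by a number, pseudogenes left out, among 11456 genes tested, and each is represented by its probe set with the highest mean signal. All 75 passed the filter on low signal. They are covered by 140 probe sets, of which 122 passed, and 28 members had more than 1 passing probe set. Classed by symbol and origin, 29 are large-subunit (MRPL) proteins with a bacterial homologue, 19 are MRPL proteins found in mitochondria only, 17 are small-subunit (MRPS) proteins with a bacterial homologue and 10 are MRPS proteins found in mitochondria only. MRPS30 and MRPS18A are counted with the small subunit by their symbols, although structures of the ribosome place both in the large subunit. MRPL53 and MRPS24 are read only by probe sets that also name other genes and were not analysed here.

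The study examined the unfolded protein response of cancer cells starved of glucose and its dependence on mitochondria, with 38 arrays of 2 lines: HT-1080, a fibrosarcoma line, and HT-29, a colorectal adenocarcinoma line. Derivatives of both lines without mitochondrial DNA (mtDNA), called rho0, were set against the parental lines. The stresses were 2-deoxyglucose (2DG, a glucose analogue that blocks glycolysis), glucose starvation (GS) and tunicamycin (TM, a blocker of protein N-glycosylation), each for 18 h unless stated. Parental HT-1080 cells received a stress with a compound on 1 array per combination. With 2DG these were the biguanides Met (metformin at 10 mM), Phen (phenformin at 100 µM) and Bu (buformin at 300 µM), rotenone (Rot, 100 nM) and antimycin A (AA, 10 ng/ml), which block respiratory complexes, and versipelostatin (VST, 3 µM). The combinations with GS were Rot, Rot and AA with floating cells included (marked S), and VST, and those with TM were Rot and AA. HT-29 cells received GS with VST on 1 array. Stress alone was applied to HT-1080 cells with 2DG (3 arrays), GS (2 arrays) and TM (1 array) and to HT-29 cells with GS (3 arrays, 1 of them at 14 h). HT-1080 rho0 cells received 2DG, GS with floating cells, and TM, and HT-29 rho0 cells received GS for 14 h, with 1 array each. Untreated controls were HT-1080 rho0 (2 arrays), HT-29 rho0 (1 array), HT-1080 (6 arrays) and HT-29 (3 arrays). Each treated array has 1 control array named as its own in the labels. Several treated arrays share a control: the 2DG arrays with Met, Bu, Phen and VST share 1, and 7 of the arrays with GS or TM share another.

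The deposited values are array intensities, and a signal below is that intensity after scaling, which gave all arrays the same trimmed mean. A log2 change is a difference of log2(signal + offset), SE is the standard error from limma, a moderated linear model across all genes, and a gene rose or fell where its Benjamini-Hochberg adjusted p over all 11456 genes was under 0.05. Members are set beside 2052 other genes of similar signal. Since the labels do not say that replicates were separate cultures, p-values cover no more than the spread among these arrays. COX1, encoded by mtDNA, averaged 0.412 in HT-1080 rho0 controls against 9520 in HT-1080 controls, and 0.758 on the HT-29 rho0 control against 9503 in HT-29 controls. Markers were compared by their mean over all arrays of a line, treated and rho0 arrays included. Of 10 colon epithelial markers 7 were higher in HT-29, and of 10 mesenchymal markers 8 were higher in HT-1080. Before scaling, the trimmed mean of all probe sets was 89.5 to 102 on the 11 arrays with a compound beside 2DG or GS, 90.2 to 113 on stressed rho0 arrays and 110 to 117 on rho0 controls. It was 122 to 131 on parental stress-alone arrays and 124 to 136 on parental controls. The 3′ to 5′ signal ratio of ACTB, a sign of RNA quality, was 1.21 to 1.76 on those 11 arrays and 1.04 to 1.42 on parental stress-alone arrays. Among the 11 it was highest, at 1.51, 1.67 and 1.76, on the arrays with Rot or AA beside GS. The ratio of GAPDH was 0.929 to 1.07 on the 11 arrays and 0.919 to 1.02 on parental stress-alone arrays. The part of these differences in the results was not tested.

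The mitochondrial ribosome translates the few messages encoded by mtDNA, all of them subunits of the respiratory chain and ATP synthase. Its proteins are encoded in the nucleus, made in the cytosol and imported, and they assemble on ribosomal RNAs that mtDNA encodes, so rho0 cells lack both the RNA scaffold and the messages of this ribosome. Compared with bacterial ribosomes it has less RNA and more protein, and many of its proteins have no bacterial counterpart.

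Promoters of these genes are known for motifs of the nuclear respiratory factors and of YY1. For that reason 5 promoters of members named in the results are shown. They were chosen by hand, and only promoters with such a motif before the start could be shown. Promoters of many other members named in the results, among them MRPL37, MRPS6, MRPL1, MRPL49, MRPL12, MRPL34 and MRPL39, held none of the motifs searched. RefSeq promoters of build GRCh38.p14, 250 bases before to 50 bases after the start, matched 67 of the 75 members; MRPL2, MRPL10, MRPL13, MRPL15, MRPL21, MRPL23, MRPL35 and MRPS28 were not matched. Searched on both strands, the core letters of a GABPA (NRF2) site, CCGGAAG, occurred in 28 of 67 member promoters (41.8%), against 10.7% of 27305 promoters and 19.9% of the 9411 promoters of genes tested. The YY1 letters AAGATGGC occurred in 19 (28.4%), against 3.0% of all promoters and 5.7% of those of genes tested. The NRF1 palindrome occurred in 1 (1.5%), against 1.4% and 2.4%. Matches to different motifs did not overlap in any member promoter, 40 members (59.7%) held at least 1 of the 3 motifs, and a match is a description of the letters, not a site. The stretches below are 70 bases each, 5′ to 3′ on the gene's strand, with the motif letters or their reverse complement in capitals. MRPL20 (chr1:1407294-1407363, minus strand, 70 to 1 bases before the start) and MRPS34 (chr16:1773145-1773214, minus strand, 80 to 11 bases before the start) hold several copies of the GABPA core. MRPL33 (chr2:27771649-27771718, plus strand, 70 to 1 bases before the start) and MRPS26 (chr20:3045980-3046049, plus strand, 72 to 3 bases before the start) hold 1 GABPA core, and MRPL36 (chr5:1799838-1799907, minus strand, 70 to 1 bases before the start) holds the YY1 letters.
MRPL20: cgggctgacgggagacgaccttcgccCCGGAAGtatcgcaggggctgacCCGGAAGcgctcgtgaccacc
MRPS34: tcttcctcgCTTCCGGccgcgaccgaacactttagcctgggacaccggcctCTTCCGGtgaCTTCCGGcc
MRPL33: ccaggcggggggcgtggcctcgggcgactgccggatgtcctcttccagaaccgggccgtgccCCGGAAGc
MRPS26: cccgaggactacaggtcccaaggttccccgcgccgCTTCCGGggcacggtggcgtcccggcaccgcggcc
MRPL36: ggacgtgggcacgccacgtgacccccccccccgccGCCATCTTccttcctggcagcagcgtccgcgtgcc

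Most members had lower signals in rho0 controls than in parental controls. Loss of mtDNA cannot be told apart here from other differences between a rho0 line and its parental line. In the mean of both lines 22 of 75 members fell in rho0 controls and none rose, while 7.06% of all genes fell and 7.61% rose; among genes of similar signal 14.3% fell and 7.70% rose. In this comparison 37 members had an unadjusted p under 0.05. The median log2 change was -0.23 over the members, -0.05 over genes of similar signal and 0.04 over all genes, and 63 of 75 members were below 0. Members of every class fell: 8 of 29 large-subunit proteins with a bacterial homologue (median -0.18), 6 of 19 large-subunit proteins of mitochondria only (-0.24), 6 of 17 small-subunit proteins with a bacterial homologue (-0.27) and 2 of 10 small-subunit proteins of mitochondria only (-0.23). These are bulk cultures, in which fewer cells with a transcript and less transcript per cell cannot be told apart.

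MRPS26, a small-subunit protein without a bacterial homologue, had signals of 313 and 279 in HT-1080 rho0 controls, against 573, 418, 532, 536, 602 and 452 in HT-1080 controls. The HT-29 rho0 control read 381, against 598, 656 and 668 in HT-29 controls. In neither line did rho0 and parental arrays overlap, and the mean log2 change was -0.76 ± 0.13 (SE, adjusted p = 0.00218). MRPS6, a small-subunit protein with a bacterial homologue, showed the same separation: 469 and 494 in HT-1080 rho0 controls against 654 to 825 in HT-1080 controls, and 539 in the HT-29 rho0 control against 796, 789 and 850 in HT-29 controls. Its change was -0.58 ± 0.10 (adjusted p = 0.00266). MRPL37, a large-subunit protein of mitochondria only, read 967 and 836 in HT-1080 rho0 controls against 1020 to 1274 in HT-1080 controls, and 921 in the HT-29 rho0 control against 1659, 1651 and 1815 in HT-29 controls, a change of -0.65 ± 0.10 (adjusted p = 0.00162). MRPL1, homologue of the protein of the bacterial L1 stalk, fell by 0.67 (adjusted p = 0.00278) and MRPS18C, 1 of several human paralogues of a single bacterial protein, fell by 0.66 (adjusted p = 0.002), with no overlap in either line. The other probe set of MRPS18C changed by -0.040. MRPL1 and MRPS18C lie on chromosome 4, whose 413 genes had a median of -0.36 in HT-1080 rho0 controls, against 0.02 for all genes. In HT-1080 27.4% of those 413 fell, against 6.95% of all genes. In the HT-29 rho0 control the medians were -0.16 and 0.07. MRPL37 lies on chromosome 1 and MRPS6 on chromosome 21. In the HT-29 rho0 control the 1143 genes of chromosome 1 had a median of -0.19, with 15.2% falling. The 120 genes of chromosome 21 had one of -0.19, with 4.17% falling, against 3.98% of all genes. In HT-1080 rho0 controls these chromosomes had medians of -0.03 and 0.07. The part of such shifts in the falls of MRPL1, MRPS18C, MRPL37 and MRPS6 was not tested. MRPS22, a mitochondria-only protein, and MRPS12, homologue of the bacterial decoding-centre protein, fell by 0.52 (adjusted p = 0.0159) and 0.44 (adjusted p = 0.00654) in the same comparison. MRPL3 fell by 0.24 (adjusted p = 0.0487), a call that held under only 5 of 19 alternatives. For MRPL47 and MRPS11, also among the 22, another probe set of the gene moved the other way.

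The rho0 effect in each line was a contrast of the same joint fit over all 12 controls, so the spread behind the single HT-29 rho0 array comes from the other groups. In HT-1080 rho0 controls 10 members fell and 2 rose (6.95% of all genes fell and 6.15% rose), with a median of -0.09 against -0.02 for genes of similar signal, of which 10.6% fell and 7.41% rose. In the HT-29 rho0 control 16 fell and none rose (3.98% and 3.99% of all genes), with a median of -0.26 against -0.07 for genes of similar signal, of which 8.92% fell and 4.24% rose. For MRPL47 and MRPS18C, both among the 16, another probe set moved the other way. MRPL44, a mitochondria-only protein related to ribonucleases, fell in HT-1080 rho0 controls, reading 346 and 298 against 467 to 609 in HT-1080 controls (-0.65 ± 0.15, adjusted p = 0.00988). MRPL57, a small mitochondria-only protein, also fell there, reading 1939 and 2109 against 2610 to 3389 (-0.57 ± 0.10, adjusted p = 0.0024). MRPL18, a large-subunit protein with a bacterial homologue, rose: 2713 and 2557 in HT-1080 rho0 controls against 1478 to 2244 in HT-1080 controls (0.55 ± 0.16, adjusted p = 0.0394). That call held under 9 of 19 alternatives.

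The test of the difference between the lines (HT-29 rho0 effect minus HT-1080 rho0 effect) passed for 6 members, all of them lower in HT-29, where 2.52% of all genes were lower and 3.09% higher, and 5.41% and 3.27% of genes of similar signal. MRPL13, a large-subunit protein with a bacterial homologue, read 1622 in the HT-29 rho0 control against 4041, 4315 and 3829 in HT-29 controls, and 1467 and 1608 in HT-1080 rho0 controls against 1141 to 1340 in HT-1080 controls. It fell in HT-29 (-1.32 ± 0.14, adjusted p = 9.85e-05), and the difference between the lines was -1.63 ± 0.17 (adjusted p = 0.000615). In HT-1080 its change was 0.31 ± 0.10 (adjusted p = 0.0447), a call that held under 8 of 19 alternatives, with adjusted p of 0.0204 to 0.404. MRPL20, whose bacterial homologue acts early in assembly of the large subunit, read 936 in the HT-29 rho0 control. HT-29 controls read 2274, 1905 and 1928. MRPL20 lies on chromosome 1, whose 1143 genes had a median change of -0.19 in HT-29 rho0 cells, against 0.07 for all genes. Its HT-1080 arrays overlapped, at 1824 and 2186 in rho0 controls and 1905 to 2431 in parental controls, and the difference between the lines was -0.97 ± 0.21 (adjusted p = 0.0195). MRPL39 differed by -1.15 (adjusted p = 0.0199), MRPS28 by -1.12 (adjusted p = 0.012), MRPL49 by -0.81 (adjusted p = 0.0431) and MRPL47 by -0.66 (adjusted p = 0.0452), its other probe set by -0.0043. Of the 6, MRPL13 and MRPS28 lie on chromosome 8, where the 3 members had a median of -1.12 in HT-29 rho0 cells. All 409 genes of that chromosome had one of -0.08, with 8.56% of them falling. MRPL39 lies on chromosome 21, whose 120 genes had a median of -0.19 in HT-29 rho0 cells, with 4.17% of them falling. The median of all genes was 0.07. The part of such shifts in these differences was not tested.

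**Figure D1:**
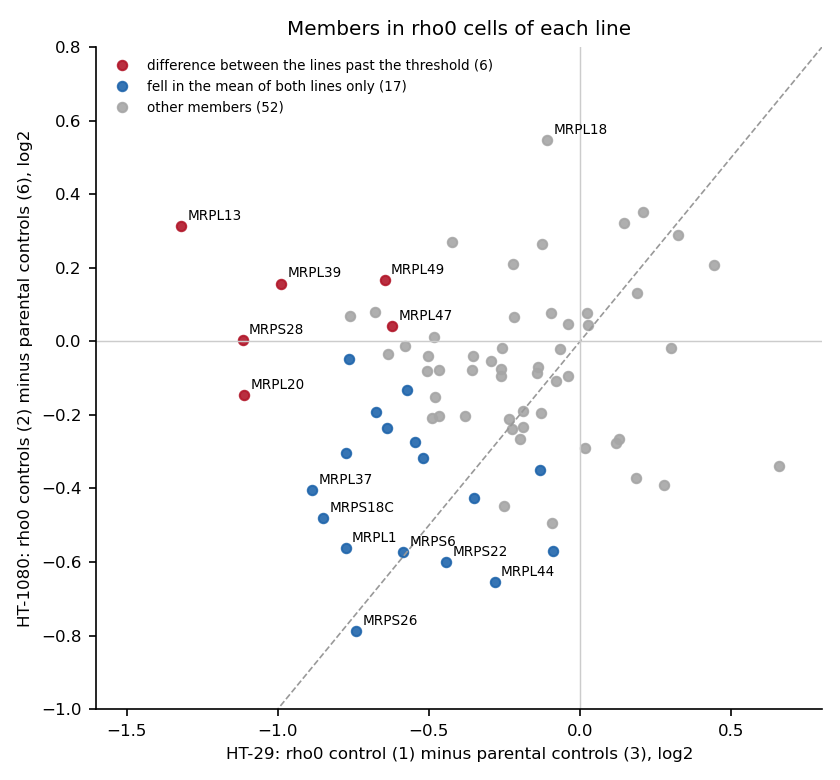
Log2 change of each of the 75 members in the HT-29 rho0 control (1 array against 3 parental controls, horizontal axis) and in HT-1080 rho0 controls (2 arrays against 6 parental controls, vertical axis). Most points lie left of 0; the 6 red points, among them MRPL13 at -1.32 and 0.31, passed the test of the difference between the lines, and the 17 blue points fell in the mean of both lines without passing it.

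With 1 HT-29 rho0 array and 2 HT-1080 rho0 arrays, these counts depend on single arrays. Without HT-1080 rho0 control 1, 11 members fell in the mean of both lines and 3 differed between the lines; without HT-1080 rho0 control 2, 1 differed between the lines, and without HT-29 control 2, 11 did. Leaving out 1 HT-1080 rho0 array, whichever it was, left 1 member falling in HT-1080 rho0 cells, and without HT-29 control 1, 10 fell in HT-29 rho0 cells. With the authors' scaling kept as deposited, 45 members fell in the mean of both lines and none rose, but the median of all genes was then -0.14; that scaling gave 22 members falling and none rising in HT-1080 rho0 cells.

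Untreated HT-29 controls had higher signals than HT-1080 controls for many members. Here 34 of 75 were higher and 11 lower in HT-29, against 27.4% and 32.4% of all genes, with a median of 0.31 over the members and -0.06 over genes of similar signal, of which 26.6% were higher and 34.6% lower. The large-subunit proteins of mitochondria only had the highest class median, 0.46, with 12 of 19 higher and 2 lower. MRPL13 averaged 4062 ± 244 in HT-29 controls (SD, n = 3) and 1236 ± 67.4 in HT-1080 controls (SD, n = 6), a difference of 1.71 ± 0.08 (SE, adjusted p = 3.02e-10). MRPL45, which lies at the exit of the peptide tunnel and tethers the ribosome to the inner membrane, read 1541, 1141 and 1462 in HT-29 controls against 499 to 670 in HT-1080 controls (1.22 ± 0.12, adjusted p = 9.33e-07). MRPS12 read 3145, 2561 and 2723 in HT-29 controls against 1288 to 1505 in HT-1080 controls (1.02 ± 0.09, adjusted p = 1.98e-07). MRPS35, MRPL55 and MRPL11 were higher in HT-29 by 1.05, 1.12 and 1.01 in the same fit (adjusted p = 2.92e-07, 7.3e-05 and 5.67e-06). None of these arrays overlapped between the lines. In the other direction MRPL34 read 587, 369 and 639 in HT-29 controls against 823 to 1103 in HT-1080 controls (-0.85 ± 0.16, adjusted p = 0.000269). MRPL10, which anchors the stalk that binds translation factors, differed by -0.75 (adjusted p = 0.000103), MRPS22 by -0.65 (adjusted p = 0.000528) and MRPL52 by -0.59 (adjusted p = 0.000151). MRPL47 and MRPL43 were also lower in HT-29 (-0.85 and -0.74), but another probe set of each gene was higher there. The same disagreement held for MRPL42, MRPS11 and MRPS15 among the higher ones. MRPS22 and MRPL47 lie on chromosome 3 and MRPL52 on chromosome 14. The genes of these chromosomes had medians of -0.38 and -0.36, with 47.3% and 44.7% lower in HT-29. MRPL11, among the higher ones, lies on chromosome 11, whose genes had a median of 0.24. The part of such shifts was not tested.

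Stress alone left most members lower on every parental array. The 9 parental arrays with a stress and no compound had member medians of -0.54 to -0.12 against their own controls, each below the median of genes of similar signal on that array (-0.12 to 0.00), and 46 to 69 of 75 members were lower. HT-1080 cells with 2DG gave medians of -0.19, -0.17 and -0.14, with GS -0.32 and -0.12, and with TM -0.12. HT-29 cells with GS gave -0.32 and -0.54 at 18 h and -0.16 at 14 h. Single arrays have no replicate, and the medians are a description.

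**Figure D2:**
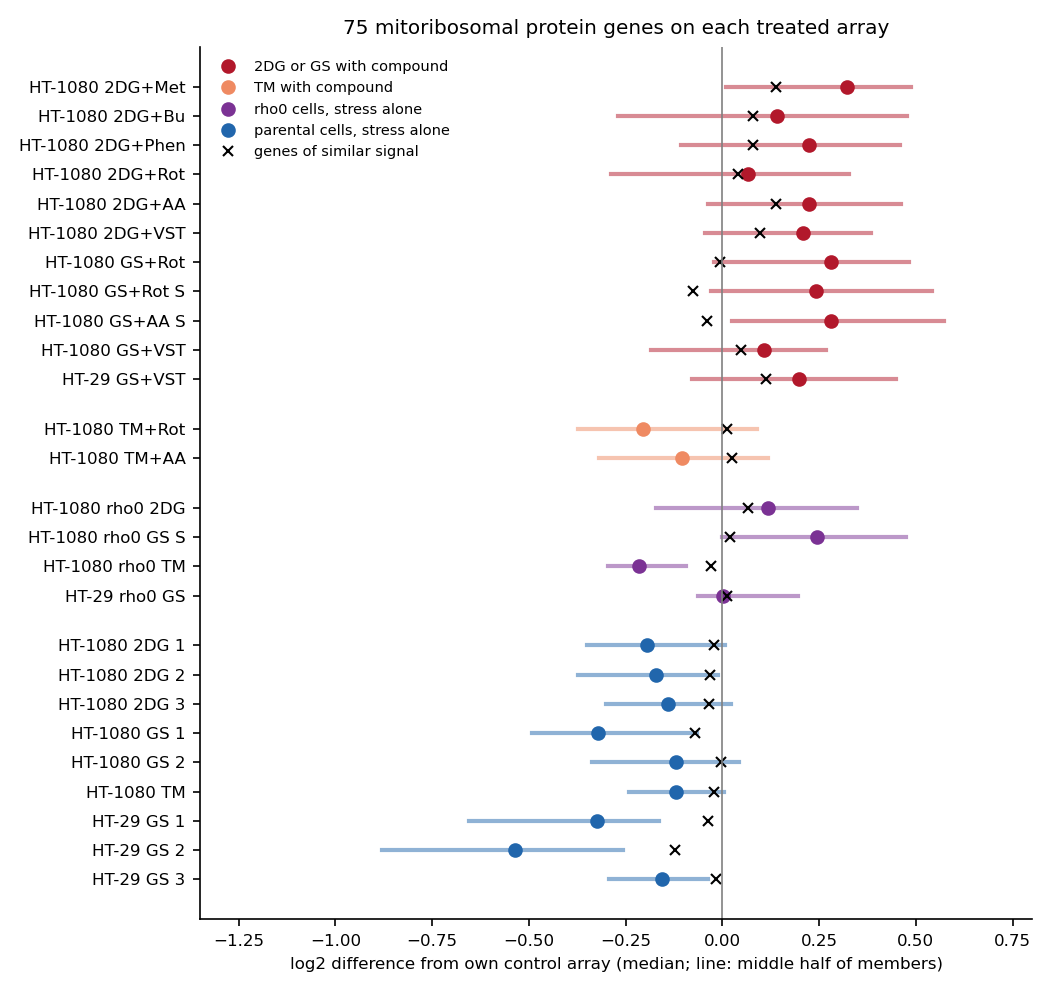
Median log2 difference of the 75 members from the own control array on each of the 26 treated arrays (points, with bars for the interquartile range of the members) and the median of 2052 genes of similar signal (crosses). All 9 parental arrays with stress alone lie below 0, at -0.54 to -0.12, and all 11 arrays with a compound beside 2DG or GS lie above 0, at 0.07 to 0.32.

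In HT-1080 cells 6 members (8%) fell with 2DG and none rose, while 3.37% of all genes fell and 4.9% rose. The members' median was -0.17 against -0.03 for genes of similar signal. Of the latter 6.77% fell, a share near that of the members, and 7.50% rose. With GS 5 members (6.67%) fell and none rose (5.1% and 4.36% of all genes), with medians of -0.20 and -0.03. Of genes of similar signal 8.53% fell, a larger share than of the members, and 7.94% rose. Unadjusted p was under 0.05 for 20 and 24 members. MRPL49, a mitochondria-only large-subunit protein, fell under both stresses. It read 598, 717 and 631 with 2DG and 628 and 532 with GS, all below the 1001 to 1179 of the HT-1080 controls, which both comparisons share in part. The change was -0.70 ± 0.10 with 2DG (adjusted p = 0.00371) and -0.96 ± 0.13 with GS (adjusted p = 0.00284). MRPL13 also fell under both, by 0.41 with 2DG (adjusted p = 0.0461) and by 0.51 with GS (adjusted p = 0.0388). With 2DG MRPL20 read 1628, 1548 and 1699, below all 6 controls at 1905 to 2431 (-0.48 ± 0.12, adjusted p = 0.0286). MRPL41, MRPS12 and MRPL21 fell by 0.50, 0.43 and 0.42 with 2DG (adjusted p = 0.0423, 0.0427 and 0.0432). With GS MRPS34, a small-subunit protein of mitochondria only, read 213 and 213 against 297 to 478 in controls (-0.99 ± 0.22, adjusted p = 0.0198). MRPL16, a large-subunit protein with a bacterial homologue, read 344 and 499 against 691 to 875 (-0.94 ± 0.25, adjusted p = 0.0364), and MRPL39 fell by 0.73 (adjusted p = 0.0361). These calls rest on few arrays: leaving out any 1 of the 2DG or GS arrays left at most 1 member called with 2DG and none with GS.

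In HT-29 cells under GS 34 of 75 members fell and 1 rose, against 15.5% and 11.6% of all genes. The median was -0.32, against -0.07 for genes of similar signal, of which 21.9% fell and 18.0% rose, 68 members were below 0, and 48 had an unadjusted p under 0.05. By class 16 of 29, 6 of 19, 8 of 17 and 4 of 10 fell, with medians of -0.36 and -0.32 for large-subunit proteins with and without a bacterial homologue and -0.25 and -0.30 for the small-subunit ones. MRPL16 read 372, 522 and 1007 with GS against 1363, 1480 and 1438 in HT-29 controls, with no overlap (-1.29 ± 0.20, adjusted p = 0.00175). MRPS26 read 236, 281 and 385 against 598, 656 and 668 (-1.10 ± 0.16, adjusted p = 0.00147). For MRPL34 the GS arrays read 219, 124 and 449 against 587, 369 and 639, so that the arrays overlapped while each lay below its own control (-1.14 ± 0.18, adjusted p = 0.0018). MRPL12, which forms the flexible stalk that recruits translation factors, read 293, 480 and 717 against 710, 941 and 872 (-0.83 ± 0.17, adjusted p = 0.00482). MRPS34 fell by 1.01 (adjusted p = 0.00312) and MRPS17, a small-subunit protein with a bacterial homologue, by 0.93 (adjusted p = 0.00256). The member that rose was MRPS10, reading 1484, 1244 and 894 against 799, 966 and 736 (0.51 ± 0.15, adjusted p = 0.0271). In each of these genes the 14 h array was nearest to its control. Without the 14 h array 46 members fell, and without the first or the second 18 h array 15 or 13 did. Fitted on HT-29 arrays alone 12 fell, without the intensity trend 20 and without the own-control block 18, and in each none rose. MRPL19, MRPL43, MRPL47 and MRPS11, all among the 34, have another probe set that moved the other way.

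When a respiratory inhibitor was added to 2DG, members were higher rather than lower. Relative to 2DG alone 31 of 75 rose and 3 fell in HT-1080 cells, against 12.9% and 22.1% of all genes, with 41 members at an unadjusted p under 0.05. The median was 0.35, against 0.10 for genes of similar signal, of which 25.2% rose and 16.9% fell, and -0.12 for all genes. The large-subunit proteins with a bacterial homologue had the most risers, 17 of 29 with 1 fall (median 0.45), then 8 of 19 with 2 falls among the mitochondria-only ones (0.30). In the small subunit 3 of 17 and 3 of 10 rose and none fell (0.25 and 0.39). Without 2DG array 2, the number rising was 17. Scaling mattered here: with the deposited scaling 10 members rose and 14 fell, the members' median being -0.03, genes of similar signal -0.28 and all genes -0.48, so that the members stayed above both while the sign against 0 turned.

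MRPL32, which an inner-membrane protease must process before it enters the ribosome, read 3009 to 3793 on the 5 inhibitor arrays against 1856, 1888 and 1849 with 2DG alone (1.00 ± 0.10, adjusted p = 3.59e-06). MRPL33 read 2229 to 3281 against 1662, 1422 and 1553 (0.87 ± 0.14, adjusted p = 0.000182). MRPS26, low in rho0 cells and under GS in HT-29, read 621 to 808 with inhibitors against 287, 434 and 396 with 2DG alone (0.89 ± 0.17, adjusted p = 0.000763). The arrays with and without an inhibitor did not overlap in any of the 3 genes. MRPS30 read 1255 to 2586 against 901, 721 and 684 (1.14 ± 0.22, adjusted p = 0.000787), but the changes of its 3 probe sets ranged from 0.00040 to 1.14. MRPL35, also among the 31, has another probe set that moved the other way (-0.0072). MRPL21 and MRPL54 rose by 0.93 and 0.89 (adjusted p = 6.84e-05 and 0.00138).

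Against this direction 3 large-subunit members fell. MRPL28, with a bacterial homologue, read 129 with Met, 169 with Bu, 128 with Phen, 128 with Rot and 91.4 with AA beside 2DG, against 401, 413 and 471 with 2DG alone (-1.71 ± 0.21, adjusted p = 1.94e-05). It was also low on some arrays outside this comparison: 158 with 2DG and 217 with GS in HT-1080 rho0 cells, against 487 and 620 in the HT-1080 rho0 controls. On the other stressed rho0 arrays it differed from the own control by -0.09 (HT-1080 with TM) and -0.20 (HT-29 with GS). In parental HT-1080 cells with TM it differed by -1.37 with Rot and -1.07 with AA. With VST it differed by -0.91 beside 2DG and -0.98 beside GS in HT-1080 cells, and by -1.11 beside GS in HT-29 cells. MRPL38 read 303 to 446 with inhibitors against 584, 777 and 671 with 2DG alone (-1.01 ± 0.18, adjusted p = 0.000429), and MRPL51 fell by 0.56 (adjusted p = 0.00747). MRPL38 and MRPL51 are proteins of mitochondria only, and in none of the 3 genes did the inhibitor arrays reach the controls of HT-1080 cells.

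The 3 biguanides were given at different doses, each on 1 array with the same control. The members' median difference from that control was 0.32 with Met at 10 mM, 0.14 with Bu at 300 µM and 0.22 with Phen at 100 µM; MRPS30 differed by 1.18, 1.88 and 1.54 and MRPL28 by -1.48, -1.10 and -1.50 on those arrays. Rot at 100 nM and AA at 10 ng/ml gave medians of 0.07 and 0.22 on the arrays with 2DG, and VST at 3 µM gave 0.21.

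Members were also higher when Rot or AA was added to GS. Relative to GS alone 37 of 75 rose and 1 fell, against 12.1% and 14.6% of all genes, with 49 at an unadjusted p under 0.05, and the median was 0.53 against -0.04 for genes of similar signal, of which 16.9% rose and 19.4% fell. By class 17 of 29 and 9 of 19 large-subunit members and 7 of 17 and 4 of 10 small-subunit members rose, and the class medians lay between 0.42 and 0.64. MRPL22, whose bacterial homologue lines the peptide tunnel, read 1721 with Rot and 1639 with AA (both with floating cells) against 835 and 763 with GS alone (1.15 ± 0.15, adjusted p = 4.7e-05). MRPL36, a large-subunit protein with a bacterial homologue, rose by 1.07 (adjusted p = 5.71e-05) and MRPL33 by 1.04, reading 3356 and 3508 against 1778 and 1600 (adjusted p = 0.000245). MRPL14 and MRPL50 rose by 1.00 and 0.99 (adjusted p = 0.000579 and 0.0122). MRPS15 rose by 1.03 (adjusted p = 0.00028), with another probe set of the gene moving the other way, as for MRPL42, MRPS18B and MRPS18C. MRPL10 fell by 0.66 (adjusted p = 0.00658), its GS arrays reading 1608 and 2548. The compound arrays included floating cells and the GS arrays are not labelled so, which cannot be told apart from the compound in this contrast. The ACTB 3′ to 5′ ratio also differed, at 1.67 and 1.76 on these compound arrays and 1.26 and 1.42 on the GS arrays. Its part in the result was not tested. GS with Rot and no floating cells was measured once: MRPL22 read 1638 and MRPL33 3162 there, and the members' median against the control was 0.28, with 0.24 for GS with Rot and floating cells. Without GS array 2, 6 members rose; without GS array 1, 29 did, and without either compound array 24. With the deposited scaling 11 rose and 7 fell, the members' median being 0.14 and that of all genes -0.41.

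**Figure D3:**
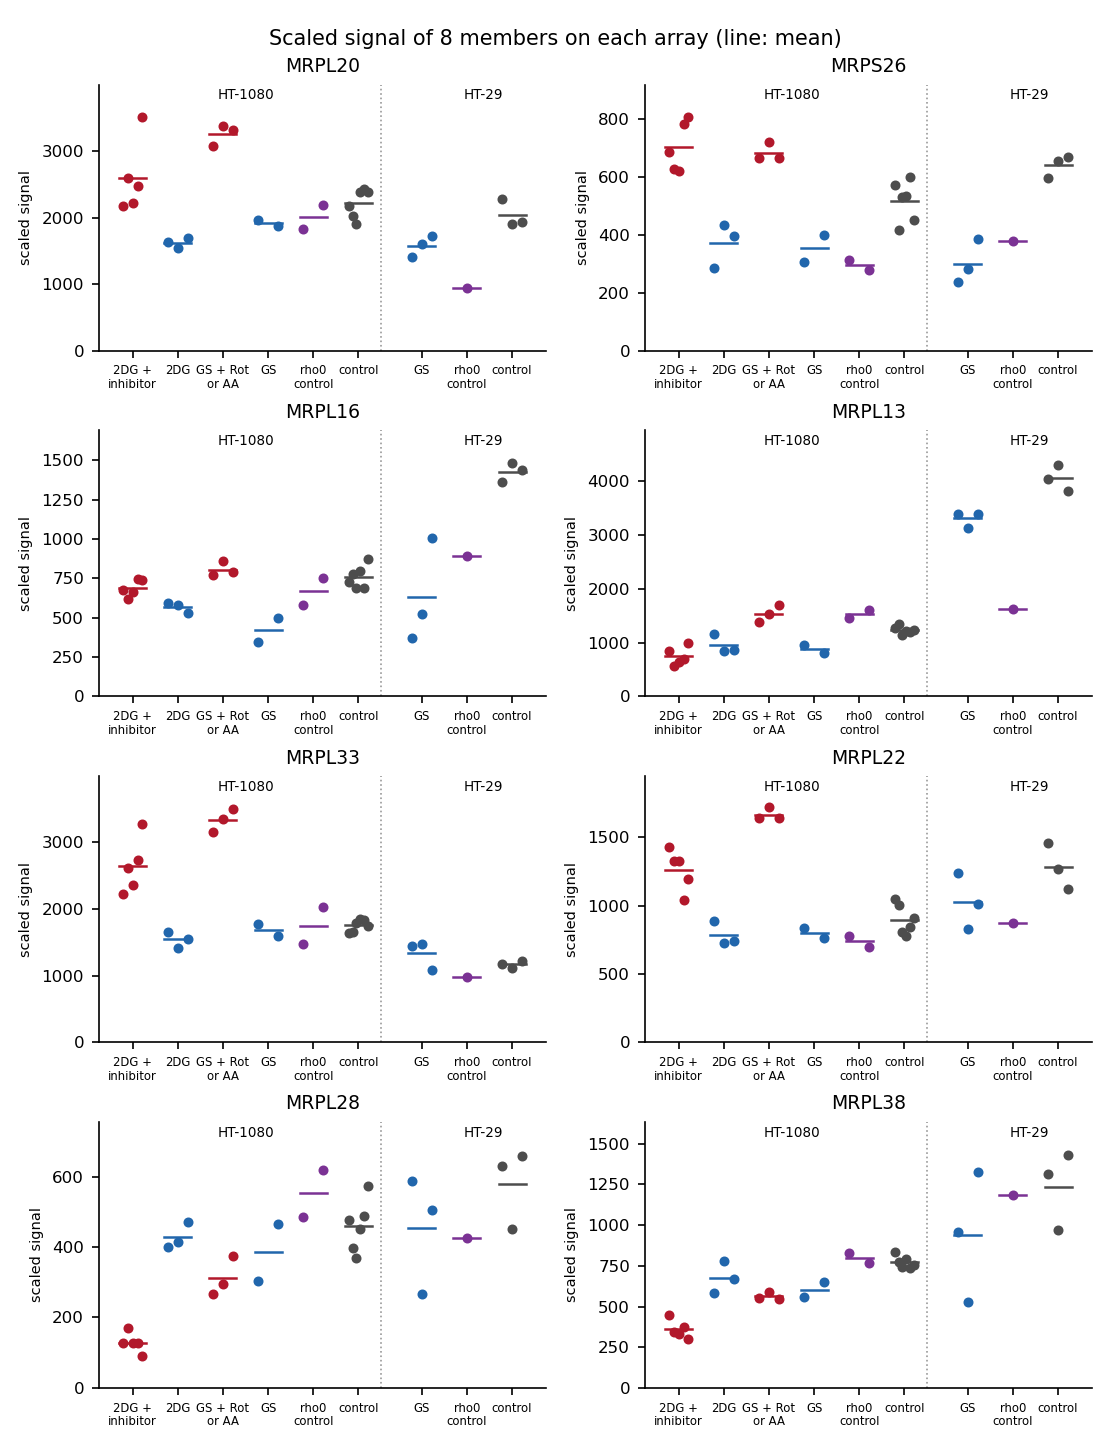
Scaled signal of 8 members on each array of 9 groups (points; lines are group means), HT-1080 left and HT-29 right of the dotted line. MRPL20, MRPS26, MRPL33 and MRPL22 are higher with an inhibitor than with the stress alone, MRPL28 and MRPL38 are lower with 2DG and an inhibitor, and MRPL13 is 1622 in the HT-29 rho0 control against 3829 to 4315 in HT-29 controls.

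Over single arrays, all 11 with a compound beside 2DG or GS had member medians above 0 (0.07 to 0.32) and above genes of similar signal on the same array (-0.08 to 0.14), and 18 to 34 of 75 members were lower than in the own control. VST belonged to both sets: 0.21 with 2DG, 0.11 with GS in HT-1080 and 0.20 with GS in HT-29 cells. With the deposited scaling the same 11 medians were -0.34 to -0.11 and genes of similar signal -0.50 to -0.28, each below the members. With quantile normalization the medians were -0.08 to 0.24, with 2DG and Rot below 0, and the members lay 0.072 below genes of similar signal with 2DG and Rot and 0.028 below with GS and VST in HT-29 cells. With the mean of all probe sets they lay 0.0016 below with 2DG and Bu and 0.022 below with 2DG and Rot. With TM the medians were below 0: -0.20 with Rot, -0.11 with AA and -0.12 with TM alone.

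Stressed rho0 cells were measured on 1 array per stress. HT-1080 rho0 cells had member medians of 0.12 with 2DG, 0.25 with GS and -0.22 with TM against their own controls, and HT-29 rho0 cells with GS had one of 0.00. For 2DG the difference between the rho0 and the parental response was tested with 1 rho0 array and its control, so the spread comes from the parental and other groups; on simulated data this test recovered 0% of genes changed by a log2 of 1. Here 3 members were higher and 2 lower in rho0 cells, against 1.77% and 5.25% of all genes, with a median difference of 0.36 against 0.07 for genes of similar signal, of which 3.61% were higher and 5.36% lower, and -0.10 for all genes. MRPS26 was 575 with 2DG in rho0 cells against 313 in their own control, while parental cells read 287, 434 and 396 with 2DG (difference of responses 1.34 ± 0.33, adjusted p = 0.0314). MRPS30, and MRPL27, whose bacterial homologue lies near the peptidyl transferase centre, differed by 1.32 and 1.01 (adjusted p = 0.0172 and 0.0282), with another probe set of MRPS30 at 0.0064. MRPS18C read 330 with 2DG in rho0 cells against 1142 in their own control (difference of responses -1.54 ± 0.24, adjusted p = 0.0044), with its other probe set at -0.16, and MRPL28 also differed by -1.54 (adjusted p = 0.0132).

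**Figure D4:**
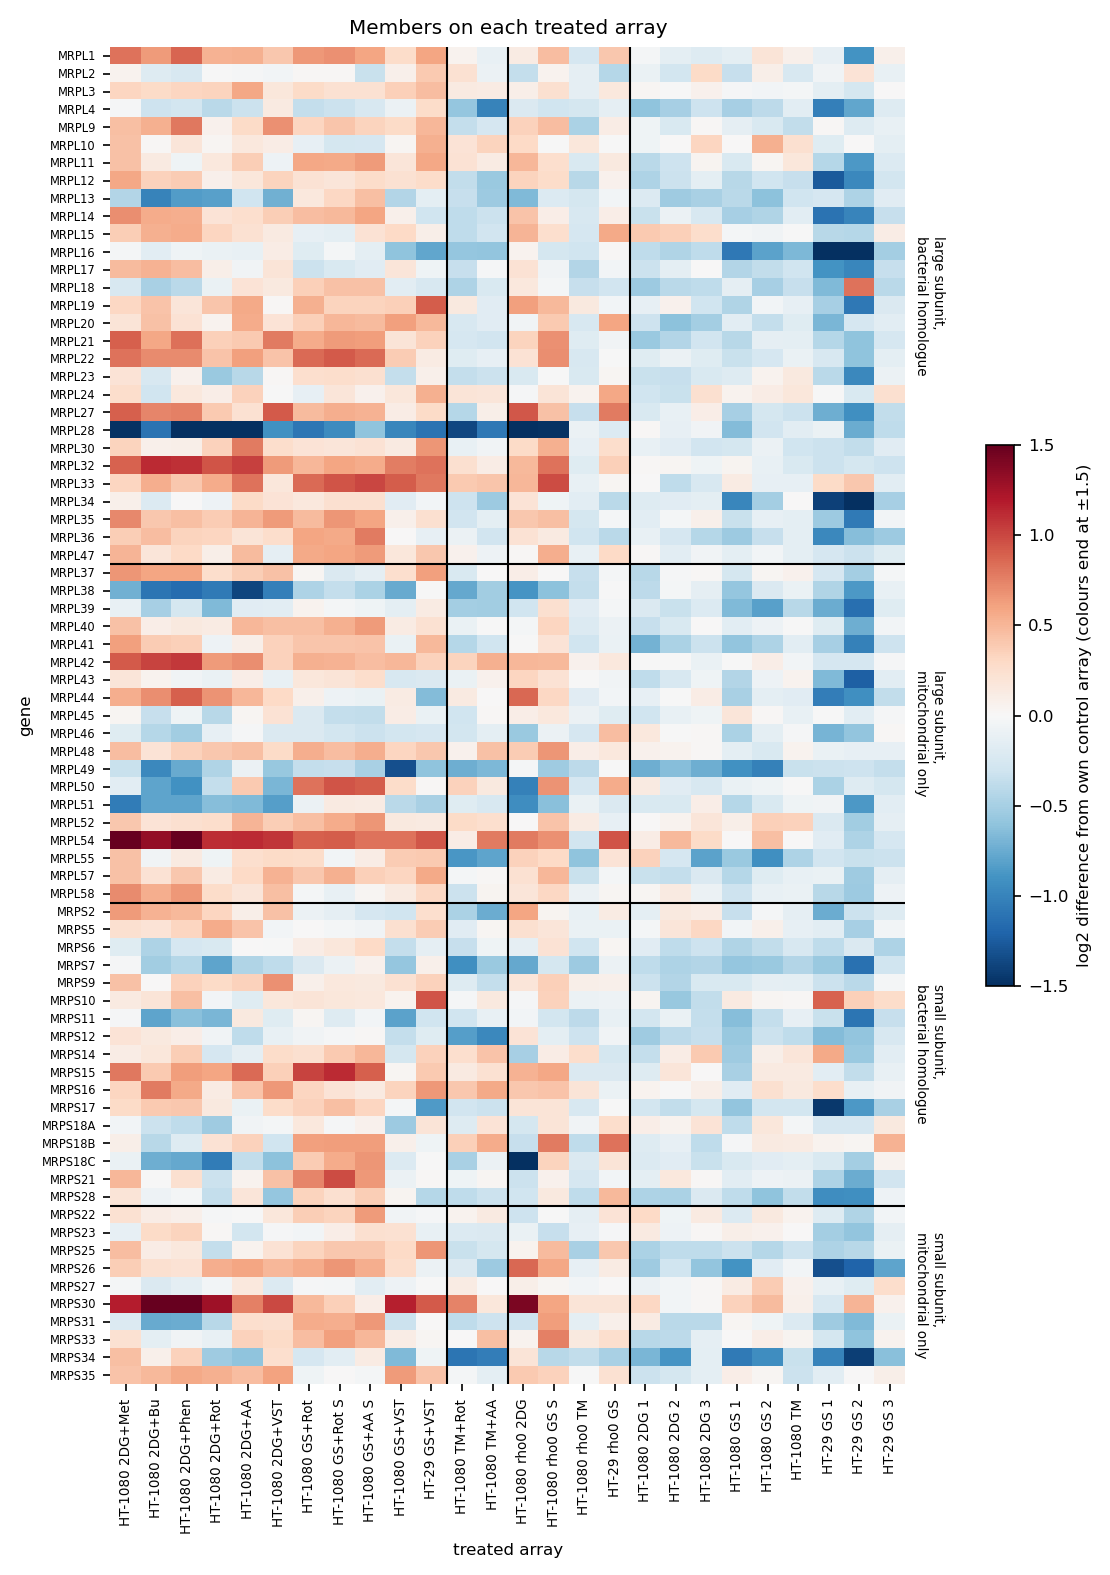
Log2 difference of each member (rows, by class) from the own control on each treated array (columns; compound beside 2DG or GS, TM with compound, stressed rho0 cells, then stress alone in parental cells). Red prevails in the first block and blue in the last; MRPL28, MRPL38 and MRPL51 are blue and MRPS30 and MRPL54 red across the 2DG arrays with a compound, where MRPS30 reaches 1.88 with Bu.

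Other genes of ribosomes and of mitochondrial gene expression were counted in the same fits. Cytosolic ribosomal proteins, measured for 51 of 77 listed genes, rose with the members when an inhibitor was added. Beside 2DG 49 of 51 rose (median 0.47), against 12.9% of all genes, and beside GS 47 of 51 (0.58), against 12.1%. With the deposited scaling the medians of all genes were -0.48 and -0.41 in these contrasts, and the cytosolic set was not examined under it. None of the 51 rose or fell under 2DG, GS or GS in HT-29 cells alone (medians 0.05, 0.03 and 0.04). The members' medians there were -0.17, -0.20 and -0.32. In rho0 controls 4 of 51 rose in the mean of both lines, 7.84% against 7.61% of all genes, and none fell. Of 5 genes of mitochondrial transcription 4 fell under GS in HT-29 cells (median -0.60), among them POLRMT, the mitochondrial RNA polymerase, by 0.87, and 4 fell with inhibitors beside 2DG (median -1.01), among them MTERF1 by 1.41 and TFB2M by 1.16. Mitochondrial aminoacyl-tRNA synthetases, measured for 15 genes, fell for 5 and rose for 3 with inhibitors beside 2DG (33.3% and 20% against 22.1% and 12.9% of all genes), with a median of -0.45. Of 19 assembly and rRNA-modification factors 5 fell in rho0 controls in the mean of both lines (median -0.21), 26.3% against 7.06% of all genes, and 5 fell with 1 rise under GS in HT-29 cells, where 15.5% and 11.6% of all genes fell and rose. Of 14 translation factors 4 rose and 2 fell with inhibitors beside 2DG, and 1 rose and 3 fell (21.4% against 15.5% of all genes) under GS in HT-29 cells. Among 4 further ribosomal proteins whose symbols lack the MRP stem, 3 fell under GS in HT-29 cells (median -0.52): PTCD3, CHCHD1 and GADD45GIP1, by 0.43, 0.60 and 0.74.

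**Figure D5:**
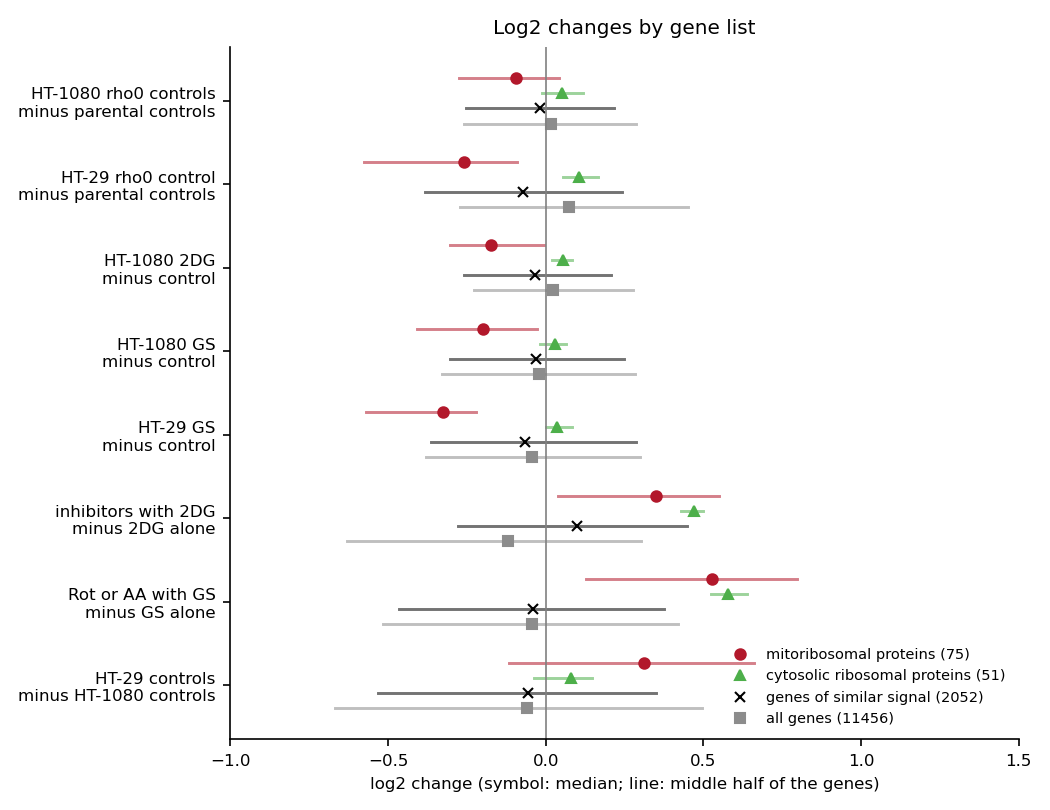
Median log2 change (symbols; bars give the interquartile range) of the 75 mitochondrial ribosomal proteins, 51 cytosolic ribosomal proteins, 2052 genes of similar signal and all 11456 genes in 8 comparisons. The mitochondrial set lies left of the others under stress alone and in rho0 cells (-0.32 with GS in HT-29 cells), and both ribosomal sets lie right of the others with inhibitors (0.35 and 0.47 beside 2DG).

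Members were last split by the promoter letters shown above. The median under GS in HT-29 cells was -0.33 for the 28 members with the GABPA core and -0.32 for the 39 matched members without it. With inhibitors beside 2DG it was 0.33 and 0.39, and in rho0 controls, in the mean of both lines, -0.28 and -0.22. Under GS in HT-1080 cells it was -0.15 and -0.29. For the 19 members with the YY1 letters and the 48 without, the medians were -0.30 and -0.34 under GS in HT-29 cells and 0.32 and 0.37 with inhibitors beside 2DG. These medians are a description over genes, with no test.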

How the data were processed

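Cultures were profiled on Affymetrix U133 Plus 2.0 arrays, 1 per sample (38 in all). The deposited values are array intensities, made by the authors with MAS5 per the submitters' processing notes. Their number limits the precision. Gene symbols come from the platform annotation; of 54675 probe sets 41097 name 1 gene, 1801 several and 11777 none. Signals were scaled so that all arrays had the same 2% trimmed mean (119), an offset of 5% of it was added, log2 was taken, and 21480 probe sets of 1 gene at or above 40% of it on at least 2 arrays were kept, 1 per gene. For 11456 genes a model with an intensity trend was fitted in limma 3.58.1 (R 4.3.3); 232 probe sets with missing values were left out. The 12 sets of arrays that share a labelled control entered as a fixed block. Deviations of a treated array and its control were correlated only for HT-1080 cells with 2DG or GS alone and HT-29 cells with GS alone. The correlations there were 0.30 to 0.63, and the 2 GS arrays of HT-1080 necessarily gave the same value. The pairing of the other treated arrays was not checked in this way. The inhibitor comparisons use 1 coefficient per class of compound, so that the spread between compounds counts as error. rho0 and line comparisons use the 12 untreated controls. Similar signal means a mean log2 signal of 8.96 to 10.98, the 10th to 90th percentile of the members. No 2 arrays were identical, and 0 columns belonged to other samples. Members, gene lists and tests were chosen with earlier results of these data known. Members named are, in each comparison, up to 6 of the largest rises and falls among calls with the same direction on all treated arrays, 12 members open to naming throughout, and those whose probe sets disagree. Tested on simulated data with 100 of 11456 genes changed by a log2 of 1, the fits recovered 71% in the rho0 comparison, 48% with 2DG, 22% with GS, 49% with GS in HT-29 cells, 61% with inhibitors and 2DG, 32% with Rot or AA and GS, 74% between lines and 0% for the rho0 response to 2DG. Every simulated array was drawn from the means and spread of the HT-1080 controls, without pairing or added spread between compounds. The percentages are therefore not the power on these data. False calls made up 9.40% of calls between lines, 7.32% with inhibitors and 2DG and 6.52% with Rot or AA and GS. They made up 3% in the rho0 comparison and 0% in the others. Alternatives were other scalings, offsets, filters and probe-set rules, no trend, no block, single lines and leaving out each array.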

Additional observations from a re-analysis of the deposited data

Results flagged for a closer look

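MRPS2, a small-subunit protein with a bacterial homologue, read 853 on HT-1080 control 2, below the other 5 HT-1080 controls at 1047 to 1182. In log2(signal + offset), not in the signals themselves, the gap was 0.629 of the range, past Dixon's 95% limit for 6 arrays. Chance alone gives about 1 such group in 20, so some are expected among 75 members. By the limma test of the difference between the lines, the change from parental to rho0 controls was lower in HT-29 than in HT-1080 for several members. They were MRPL13 (-1.63), MRPL39 (-1.15), MRPS28 (-1.12), MRPL20 (-0.97), MRPL49 (-0.81) and MRPL47 (-0.66). That test rests on 1 HT-29 rho0 array and 2 HT-1080 rho0 arrays. In it loss of mtDNA cannot be told apart from other differences between a rho0 line and its parental line. The response to 2DG differed between HT-1080 rho0 and parental cells for MRPS26 (1.34), MRPS30 (1.32) and MRPL27 (1.01), higher in rho0 cells, and for MRPS18C and MRPL28 (-1.54 each), lower in rho0 cells; this test rests on 1 rho0 array with 2DG. The causes were not tested.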

How the results depend on the processing

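Counts are members past the threshold, and causes were not tested. With the deposited scaling 45 fell in the mean of both rho0 lines, 22 fell and 0 rose in HT-1080 rho0 cells, 27 fell in HT-29 rho0 cells, 10 rose and 14 fell with inhibitors and 2DG (median -0.034), 11 rose and 7 fell with Rot or AA and GS, 1 rose and 4 fell in the rho0 response to 2DG, and 0 of 11 compound arrays had a median above 0. With quantile normalization 1 rose in the rho0 mean and 1 in the line difference, 8 fell with GS and 2 with Rot or AA and GS, and MRPL3 with inhibitors was -0.050. With the mean of all probe sets 1 rose in the rho0 mean, in the line difference and in HT-29 rho0 cells, 1 fell in the rho0 response to 2DG and 3 fell with Rot or AA and GS. Without the intensity trend 3 fell in the line difference, 1 with 2DG, 1 with GS, 20 with GS in HT-29 cells (0 rose), 6 in HT-1080 rho0 cells (0 rose) and 6 in HT-29 rho0 cells, and 0 rose in the rho0 response to 2DG. Fitted on the same line only, 1 rose and 22 fell with 2DG, 1 and 23 with GS, 0 and 12 with GS in HT-29 cells, 17 and 5 in the rho0 response to 2DG, and 2 fell with Rot or AA and GS. With no filter 2 fell with 2DG, 0 rose in HT-1080 rho0 cells and 10 fell in HT-29 rho0 cells; with a stricter one 2 fell with Rot or AA and GS and 3 in the rho0 response to 2DG. Without the replicate block 0 rose and 18 fell with GS in HT-29 cells, 6 fell with inhibitors and 2DG, and 0 fell with Rot or AA and GS; other counts of that pairing stayed within 1.5 times. Without the 14 h array 2 rose with GS in HT-29 cells. Leaving out 1 array at a time, 11 to 28 fell in the rho0 mean, 0 to 2 rose and 1 to 11 fell in HT-1080 rho0 cells, 10 to 19 fell in HT-29 rho0 cells, 0 to 1 rose and 1 to 11 fell in the line difference, 30 to 38 were higher and 10 to 13 lower between lines, 0 to 1 fell with 2DG and 0 with GS, 0 to 2 rose and 13 to 46 fell with GS in HT-29 cells, 0 to 1 rose and 1 to 2 fell in the rho0 response to 2DG, 17 to 33 rose and 3 to 4 fell with inhibitors and 2DG, and 6 to 29 rose and 0 to 1 fell with Rot or AA and GS. Over the named calls and alternatives 1370 values kept their direction and side of the threshold, 205 kept the direction only and 1 reversed.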
